A study of Rattus norvegicus with 12 samples.

Results

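Of the 30560 genes counted in rat heart, 10 encode the core of the transforming growth factor beta (TGF-beta) system outside the cell. They are the ligands Tgfb1, Tgfb2 and Tgfb3, the receptors Tgfbr1, Tgfbr2 and Tgfbr3, and the latent TGF-beta binding proteins Ltbp1, Ltbp2, Ltbp3 and Ltbp4. These genes were chosen by name, with earlier results of these data known. Ltbp2 was chosen also because it is among the largest rises after infarction, so its values are given as a description, without a test. All 10 had a single row in the table and passed the filter on low counts, at least 10 counts in total, which left 18182 genes.

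TGF-beta is secreted in a latent form, wrapped in its own propeptide, and is commonly tethered to the extracellular matrix through a latent binding protein until it is released. The active ligand binds the type II receptor, which recruits and phosphorylates the type I receptor, and the signal passes to SMAD proteins that enter the nucleus. In the injured heart this pathway is best known for its part in fibroblast activation and in the deposition of collagen scar.

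Hearts came from male Wistar rats operated on at 7 weeks of age, in 3 groups of 4 rats with 1 library per rat. Sham rats had the chest opened and were given the vehicle, 0.5% carboxymethylcellulose. MI rats had a permanent ligation of the left anterior descending coronary artery and the same vehicle, and MI + UA rats had the ligation and urolithin A (UA), a gut microbial metabolite of ellagitannins that induces mitophagy. Gavage was daily for 8 weeks, began 24 hours after surgery according to the methods, and used UA at 50 mg/ml with the volume set by body weight. Other passages of the study give a dose per body weight and a later start, so the exposure is not settled by the sources. RNA was taken from 20 µm formalin-fixed, paraffin-embedded sections of the middle of the heart. Nothing in the labels says how much of each section was scar, border or remote muscle. Rat 66 is labelled as treated with UA but appears among the vehicle-treated MI rats in the study's echocardiography listing. It was kept with MI + UA, and the values without it are given below.

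Reads on genes numbered 6228706 to 19031695 per library, and the lowest count of any of the 10 genes in any library was 25. Reads assigned to genes, as a share of reads that fell on genes, on no feature or on more than 1 gene, were 50.4% to 53.4% in Sham and 47.6% to 49.8% in MI, without overlap. In MI + UA they were 46.2% to 50.8%. Heart muscle markers were abundant in every library. Their summed level was 15166 to 17782 CPM in Sham, where CPM are counts scaled to a common library size with edgeR's TMM factors. It was 10146 to 10716 CPM in MI and 10711 to 13389 CPM in MI + UA, and 7 of the 7 tested were lower in MI than in Sham. Markers of fibroblasts moved the other way, with 7 of 8 higher in MI and summed levels of 359 to 442 CPM in Sham, 683 to 943 in MI and 666 to 933 in MI + UA. Macrophage markers were higher for 6 of 7, with summed levels of 75.9 to 90.5 CPM in Sham, 138 to 184 in MI and 125 to 194 in MI + UA. These shifts accompany the results that follow, and their part in them was not tested. In whole tissue, fewer cells of a type and less RNA per cell cannot be told apart.

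Infarction was followed by higher RNA of the ligands and of the latent binders, while no receptor passed the test. MI was compared with Sham by edgeR's quasi-likelihood test with p-values adjusted over all genes. An adjusted p under 0.05 was reached by 6 of the 9 genes other than Ltbp2, all 6 higher in MI and 0 lower. Over all genes tested, 5.82% were called higher and 5.53% lower, and of the 4473 genes at least as abundant as the least abundant member, 8.27% were called higher and 15.8% lower. DESeq2 also called 6 higher and 0 lower, against 5.84% and 6.17% of all genes. At an unadjusted p under 0.05 there were 7 of the 9 in edgeR, against 23.9% of all genes. The median log2 fold change of the 9 was 0.41, against 0.03 over all genes.

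**Figure D1:**
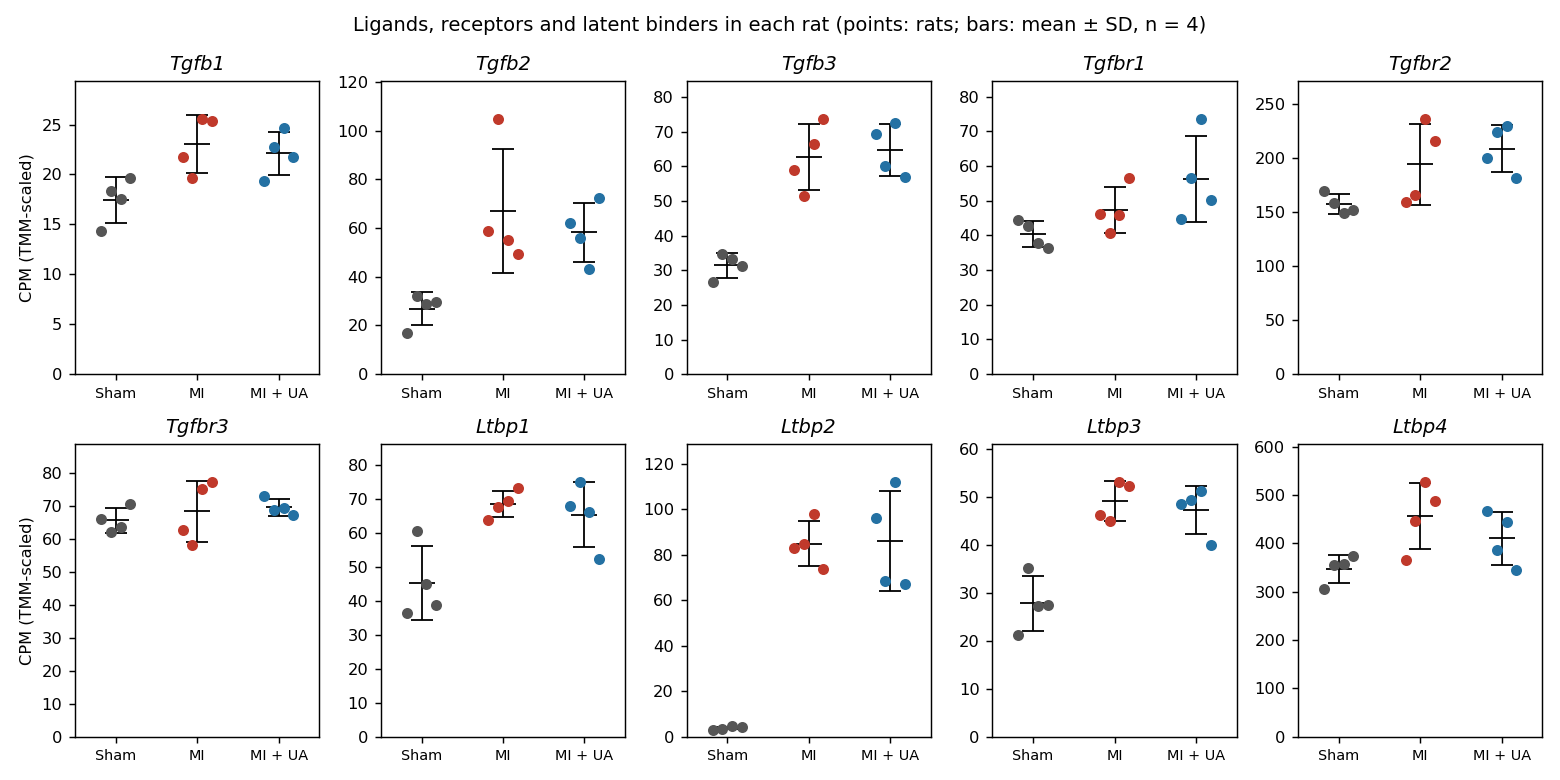
Level of each of the 10 genes in each rat, in TMM-scaled CPM on a linear axis from 0. Points are rats, and bars are the mean ± SD of 4 rats per group. Ltbp2 lies between 3.14 and 4.55 CPM in Sham and between 67.2 and 112 CPM in the infarcted rats of both groups.

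All 3 ligand genes were higher in MI. Tgfb1, the isoform most often linked to fibrosis, measured 14.3, 18.3, 17.5 and 19.7 CPM in Sham rats 12, 17, 32 and 38, and 21.8, 19.6, 25.5 and 25.3 CPM in MI rats 36, 57, 61 and 89. The groups overlapped by a narrow margin, since MI rat 57 fell just under Sham rat 38. Its log2 fold change was 0.41 (SE 0.12, adjusted p = 0.0339). That call was lost when any one of Sham rats 12, 17 and 32 or MI rats 61 and 89 was left out, with adjusted p-values of 0.0534 to 0.115.

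Tgfb2, the isoform known for its part in heart valve development, measured 16.9, 32.2, 28.8 and 29.4 CPM in the Sham rats in the same order, and 58.9, 105, 55.0 and 49.3 CPM in the MI rats. Every MI rat lay above every Sham rat, and MI rat 57 lay far above the other MI rats. The log2 fold change was 1.31 (SE 0.21, adjusted p = 0.000398). It was 1.02 without rat 57, and the call was kept.

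Tgfb3, the remaining isoform, measured 26.6, 34.8, 33.2 and 31.1 CPM in Sham and 58.9, 51.6, 66.6 and 73.7 CPM in MI, again without overlap. Its log2 fold change was 1.00 (SE 0.12, adjusted p = 1.11e-05), a 2.01-fold difference.

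No receptor passed the test. Tgfbr1 encodes the type I receptor kinase, and it measured 40.4 ± 3.79 CPM in Sham and 47.3 ± 6.67 CPM in MI (SD, n = 4 each). The log2 fold change was 0.23 (95% interval -0.04 to 0.51, adjusted p = 0.308). Tgfbr2, the ligand-binding type II receptor, measured 157 ± 9.07 CPM in Sham and 194 ± 37.5 CPM in MI (SD, n = 4 each). In MI its levels fell into a pair of lower values, 159 CPM in rat 36 and 165 CPM in rat 57, and a pair of higher ones, 236 CPM in rat 61 and 216 CPM in rat 89. The lower pair lay within the Sham range of 149 to 169 CPM. Its log2 fold change was 0.31 (95% interval 0.07 to 0.54, adjusted p = 0.0883), and it passed the test without rat 36 (adjusted p = 0.0271), without rat 57 (adjusted p = 0.0392) or with no filter on low counts (adjusted p = 0.0476). Tgfbr3 encodes betaglycan, a co-receptor that presents ligand to the signalling receptors. Sham rats measured 65.8 ± 3.74 CPM and MI rats 68.5 ± 9.33 CPM (SD, n = 4 each), and its log2 fold change of 0.06 (95% interval -0.13 to 0.25, adjusted p = 0.767) had both signs within its interval.

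Among the latent binders, Ltbp1, Ltbp3 and Ltbp4 were higher in MI. Their products bind the latent ligand covalently. Ltbp1 measured 36.4, 60.5, 44.8 and 38.9 CPM in Sham and 63.8, 67.4, 69.3 and 73.1 CPM in MI. All 4 MI rats lay above the highest Sham rat, rat 17, and the log2 fold change was 0.60 (SE 0.13, adjusted p = 0.00424).

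Ltbp3 measured 21.2, 35.2, 27.3 and 27.5 CPM in Sham and 46.2, 45.0, 53.1 and 52.4 CPM in MI. Here too the groups stood apart, with a log2 fold change of 0.83 (SE 0.12, adjusted p = 0.000164). Ltbp4 measured 306, 355, 357 and 373 CPM in Sham and 366, 447, 527 and 488 CPM in MI, and MI rat 36 lay within the Sham range. Its log2 fold change of 0.39 (SE 0.11, adjusted p = 0.0223) did not pass the test when Sham rat 12 or 32 or MI rat 61 or 89 was left out, with adjusted p-values of 0.0507 to 0.0970.

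Of the 9 genes other than Ltbp2, 4 had every MI rat above every Sham rat, namely Tgfb2, Tgfb3, Ltbp1 and Ltbp3. Over all genes tested, 8.12% did.

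Ltbp2 is a microfibril-associated member of the family whose product, unlike the others, is not known to bind latent TGF-beta covalently, so "latent binder" describes its family more than its function. It measured 3.14, 3.61, 4.55 and 4.17 CPM in Sham, from 25, 25, 27 and 35 counts. In MI it measured 83.1, 84.8, 98.1 and 74.0 CPM, from 1136, 541, 945 and 908 counts. The MI rats sat in a narrow band far above every Sham rat. The log2 fold change was 4.46 (SE 0.19), a 22.1-fold difference, and it placed Ltbp2 at rank 46 of 18182 genes by log2 fold change. Leaving out any 1 rat moved it only between 4.37 and 4.54.

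The 250 bases before the transcription start of Ltbp2 and of Ltbp1 are shown because these were the members of the 10 whose windows held any of the letters searched. Sequences are from RefSeq on the GRCr8 build, 5′ to 3′ on the strand of the gene, and all 10 genes were matched by symbol. Capitals mark CAGAC, the core of the SMAD-binding element, on either strand, which reads GTCTG on the other. No marked stretch overlaps another. The Ltbp2 window is chr6:110257299-110257548 on the minus strand and the Ltbp1 window is chr6:26177302-26177551 on the minus strand.
Ltbp2: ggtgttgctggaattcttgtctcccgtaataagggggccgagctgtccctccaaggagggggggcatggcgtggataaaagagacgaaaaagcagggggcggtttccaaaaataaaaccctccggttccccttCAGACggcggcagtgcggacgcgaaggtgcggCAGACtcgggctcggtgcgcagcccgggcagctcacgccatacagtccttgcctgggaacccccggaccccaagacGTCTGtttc
Ltbp1: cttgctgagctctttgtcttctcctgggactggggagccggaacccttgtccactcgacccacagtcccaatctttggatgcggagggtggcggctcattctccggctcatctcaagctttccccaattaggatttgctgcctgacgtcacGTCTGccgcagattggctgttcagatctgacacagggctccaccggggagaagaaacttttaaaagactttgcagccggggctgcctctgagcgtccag
The Ltbp2 window held 3 matches and the Ltbp1 window 1. Of 33469 promoter windows of the same length, 42.9% held at least 1 match and 2.54% held at least 3. The AP-1 letters TGANTCA, in 6.34% of all windows, and the TEAD letters CATTCC, in 12.1%, were in 0 of the 10. RefSeq's span of Ltbp2 extends further upstream than this start, and which start is used in heart was not tested.

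**Figure D2:**
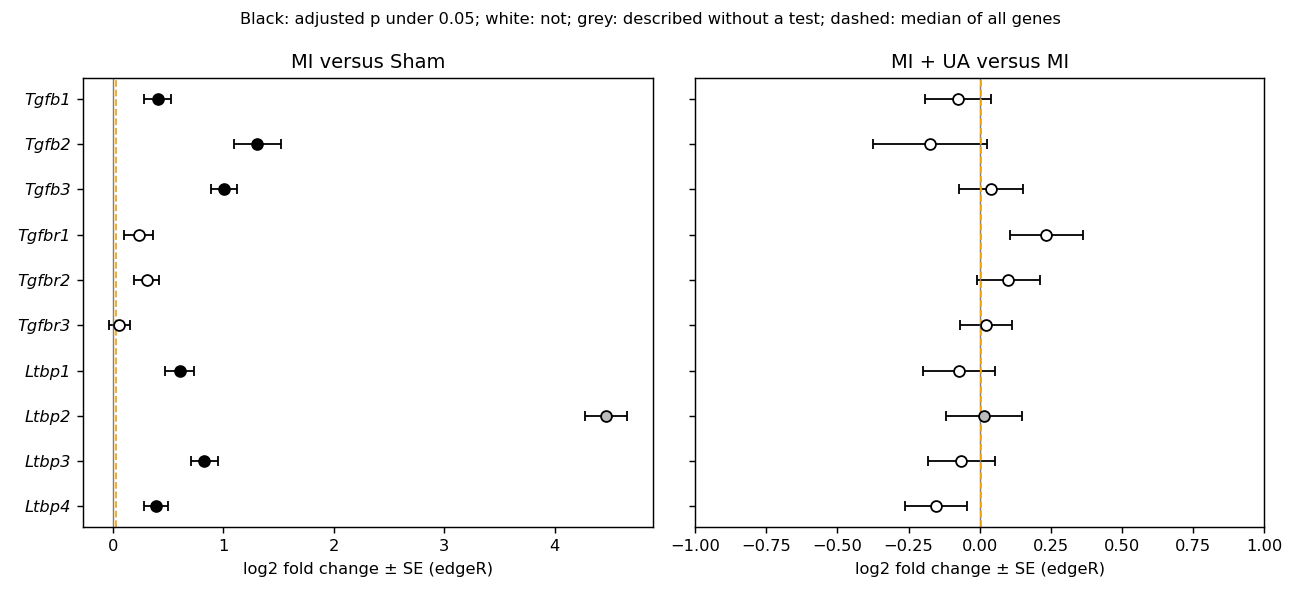
Log2 fold change ± SE (edgeR) of each gene in MI versus Sham and in MI + UA versus MI, on axes of different width. Filled black points passed an adjusted p of 0.05, white points did not, the grey points are Ltbp2, described without a test, and the dashed line is the median of all genes. In the second panel all 10 points lie between -0.17 and 0.23.

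Because the genes of a family rose by different amounts, its makeup shifted. Shares of a family's counts are compared across rats only, since transcript length also sets them. Ltbp2 held 0.910% ± 0.111 of the latent binder counts in Sham and 13.0% ± 1.69 in MI (SD, n = 4 each), as a description. The Ltbp4 share was 82.0% ± 2.67 in Sham and 69.1% ± 2.51 in MI (SD, n = 4 each), with ranges of 78.1% to 84.1% and 65.5% to 71.0%. Ltbp2 is part of this total, so the lower Ltbp4 share largely restates the Ltbp2 rise and is a description too. In CPM, Ltbp4 was higher in MI, with a log2 fold change of 0.39. Ltbp1 kept a share near 10.6% in Sham and 10.4% in MI.

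Among ligand counts, Tgfb1 held 21.5% to 24.7% in Sham and 11.1% to 17.3% in MI, without overlap. The Tgfb2 share ranged from 33.2% to 59.5% in MI, the highest in rat 57, and it overlapped the Sham range of 29.3% to 37.7%. For each Tgfb1 count there were 1.58 to 1.90 Tgfb3 counts in Sham, 2.61 to 2.91 in MI and 2.62 to 3.58 in MI + UA. The Tgfb3 to Tgfb1 ratio of every infarcted rat exceeded that of every Sham rat. Among receptor counts, Tgfbr3 held 23.7% to 27.3% in Sham and 21.1% to 23.4% in MI, also without overlap but by a narrow margin. Tgfbr3 itself did not pass the test. How often such shares and ratios separate the groups for other genes was not examined.

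**Figure D3:**
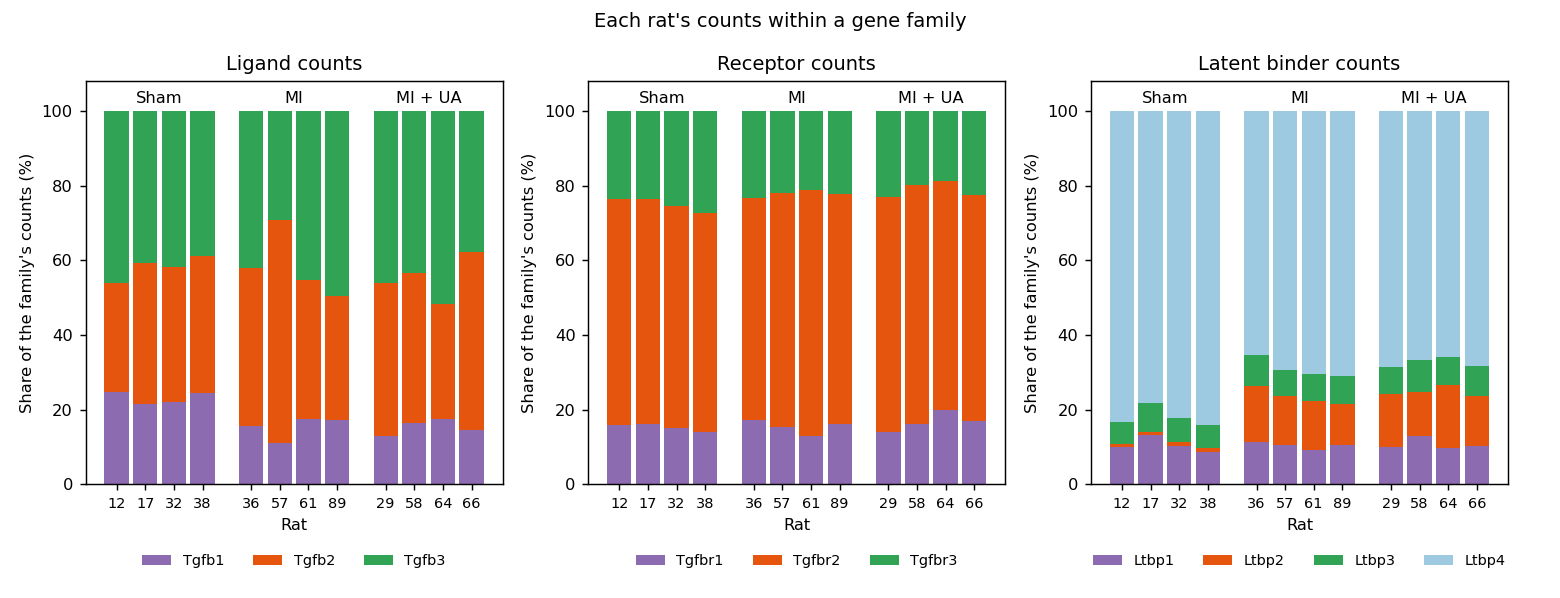
Share of each gene in the counts of its family, in percent, for each of the 12 rats. Each bar is 1 rat and sums to 100. The Ltbp2 band grows from at most 1.05% in Sham to at least 10.8% in MI, and the Tgfb1 band is narrower in every MI rat than in every Sham rat.

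No difference between MI + UA and MI passed the test for the 9 genes other than Ltbp2. In this comparison 0 of the 9 had an adjusted p under 0.05 in edgeR or in DESeq2, and 0 had an unadjusted p under 0.05 in edgeR. Ltbp2 was chosen on a rise in which the same MI rats take part, so its values here are a description too. Of all genes tested, 0% passed the adjusted and 3.79% the unadjusted threshold. Log2 fold changes ranged from -0.17 for Tgfb2 to 0.23 for Tgfbr1.

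Ltbp2 measured 96.3, 68.6, 112 and 67.2 CPM in MI + UA rats 29, 58, 64 and 66. Both the lowest and the highest infarcted rat were among them, and the MI values of 74.0 to 98.1 CPM lay between. Against MI its log2 fold change was 0.02 with a 95% interval of -0.26 to 0.29. For the ligands the intervals were -0.32 to 0.17 for Tgfb1, -0.59 to 0.24 for Tgfb2 and -0.19 to 0.27 for Tgfb3. The sign for Tgfb2 rested on MI rat 57, without which its log2 fold change was 0.11.

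Tgfbr1 had the largest difference of the receptors. It measured 44.8, 56.6, 73.5 and 50.2 CPM in MI + UA against 46.2, 40.6, 45.8 and 56.5 CPM in MI, and the groups overlapped through rats 29, 66 and 89. The log2 fold change was 0.23 with a 95% interval of -0.03 to 0.50. Tgfbr2 had an interval of -0.13 to 0.33 and Tgfbr3 one of -0.17 to 0.21. Among the remaining latent binders the intervals were -0.34 to 0.19 for Ltbp1, -0.31 to 0.18 for Ltbp3 and -0.38 to 0.07 for Ltbp4. Without rat 66, whose treatment the sources give differently, log2 fold changes ran from -0.30 for Tgfb2 to 0.28 for Tgfbr1, and none of the 9 passed.

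Against Sham, which is shared with the comparison above, the UA-treated infarcted rats also had higher levels. In MI + UA versus Sham, 6 of the 9 genes were higher and 0 lower in edgeR and in DESeq2. Of all genes, edgeR called 5.16% higher and 4.27% lower, and DESeq2 5.47% and 5.09%. All MI + UA rats lay above all Sham rats for 5 of the 9, Tgfb2, Tgfb3, Tgfbr1, Tgfbr2 and Ltbp3, against 7.83% of all genes. The ligands Tgfb2 and Tgfb3 had log2 fold changes of 1.13 (adjusted p = 0.00170) and 1.04 (adjusted p = 9.36e-06), and that of Tgfb1 was 0.33 (adjusted p = 0.0989). Tgfb2 measured 62.0, 55.9, 43.0 and 72.3 CPM and Tgfb3 69.2, 60.1, 72.7 and 56.9 CPM, without overlap with the Sham rats.

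Both signalling receptors passed in this comparison. Tgfbr1 had a log2 fold change of 0.47 (adjusted p = 0.0278) and Tgfbr2 one of 0.41 (adjusted p = 0.0243). Either call was lost without Sham rat 32 or 38 or without MI + UA rat 58 or 64, and that of Tgfbr2 also without Sham rat 17. That they passed here and not in MI versus Sham does not show a difference between the infarcted groups, since in the direct comparison neither passed.

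Ltbp1 was higher by 0.53 (adjusted p = 0.0125) and Ltbp3 by 0.76 (adjusted p = 0.000476), while Ltbp4 had a log2 fold change of 0.24 (adjusted p = 0.198) and Tgfbr3 one of 0.08 (adjusted p = 0.673). The Ltbp1 call was lost without Sham rat 12 or 38. With Sham rat 38 left out, 3 of the 9 genes passed. Without MI + UA rat 66 the log2 fold changes ran from 0.10 for Tgfbr3 to 1.10 for Tgfb3 over the 9 genes, and the calls were the same 6. Ltbp2 stood at a log2 fold change of 4.48, given as a description.

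Fibroblast markers rose along with the ligands and binders, so the levels were also expressed per 100 CPM of the 8 summed fibroblast markers. On that scale Tgfb3 was 7.94 ± 0.545 in Sham, 8.02 ± 0.412 in MI and 8.14 ± 0.434 in MI + UA (SD, n = 4 each). Ltbp3 was 6.98 ± 0.851 in Sham, 6.34 ± 0.526 in MI and 5.95 ± 0.359 in MI + UA (SD, n = 4 each). The group ranges of Tgfb3 and of Ltbp3 overlapped on this scale. Those of Tgfb2 did as well, at 4.71 to 7.55 in Sham and 5.23 to 15.3 in MI.

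Ltbp2 did not stay level. It went from 0.982 ± 0.171 in Sham to 11.1 ± 2.17 in MI and 10.7 ± 1.51 in MI + UA (SD, n = 4 each). For Tgfb1, whose CPM was higher in MI but rose by less than the marker sum, the ratio was lower. It was 4.41 ± 0.430 in Sham, 2.96 ± 0.226 in MI and 2.80 ± 0.383 in MI + UA (SD, n = 4 each). The Ltbp4 ratio was also lower, with 80.3 to 93.5 in Sham and 51.8 to 65.4 in MI, though its CPM was higher in MI. That of Ltbp1 overlapped between 9.73 to 13.7 in Sham and 7.75 to 9.88 in MI. Per fibroblast marker all 3 receptors were lower in MI without overlap, Tgfbr3 for example at 16.7 ± 1.90 in Sham and 8.78 ± 0.502 in MI (SD, n = 4 each). The marker sum was 359 to 442 CPM in Sham and 683 to 943 in MI, so a gene with level CPM falls on this scale. The receptors' own log2 fold changes were 0.06 to 0.31, so their lower ratios do not show lower receptor RNA. The markers are expressed by fibroblasts in differing amounts and states, and the 10 genes are also expressed by other cells, so these are ratios of RNA and not levels per cell.

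**Figure D4:**
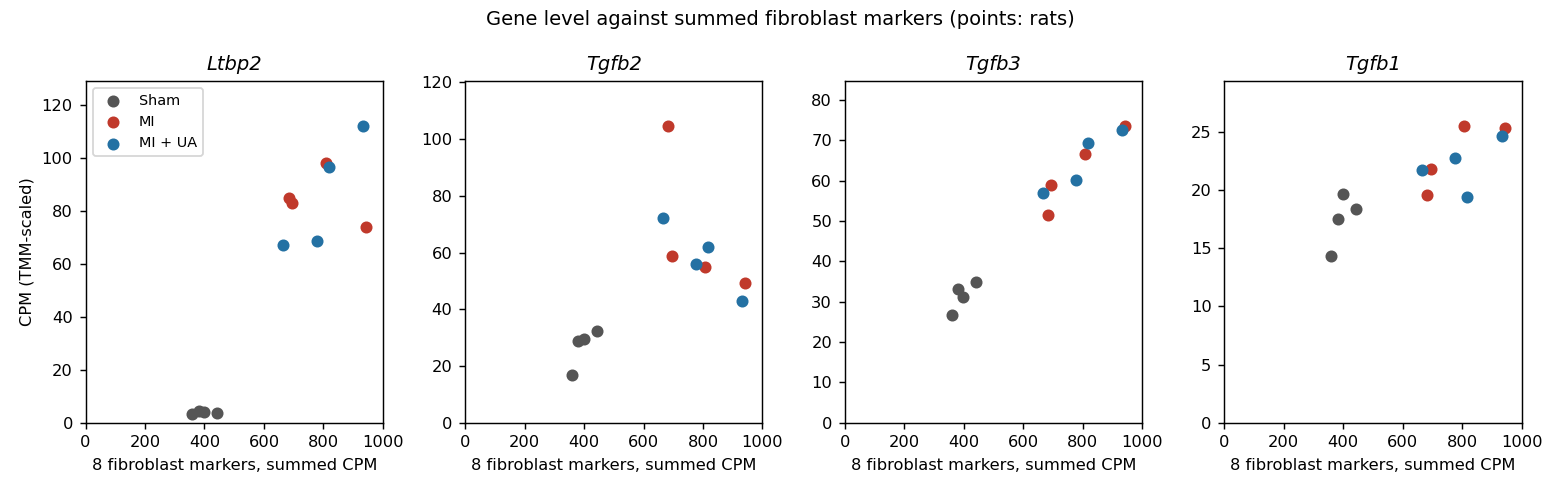
CPM of Ltbp2, Tgfb2, Tgfb3 and Tgfb1 against the summed CPM of 8 fibroblast markers, one point per rat. The infarcted rats lie at 666 to 943 CPM of markers and the Sham rats at 359 to 442. Tgfb3 scales with the marker sum, whereas Ltbp2 is set apart in Sham, and MI rat 57 has the highest Tgfb2.

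The rest of the pathway was followed through 57 genes in 6 lists, 55 of which were tested. In MI versus Sham, 22 were higher and 0 lower in edgeR, with a median log2 fold change of 0.34. DESeq2 called 23 higher and 1 lower. Over all genes edgeR called 5.82% higher and 5.53% lower, and the same shares apply to the counts by list below. These lists too were drawn up with earlier results known. The scaffolds to which latent complexes attach had 5 of 8 higher, with a median of 1.17. Fn1 encodes fibronectin and rose by 2.09 on the log2 scale (adjusted p = 0.000405), and Bgn, the proteoglycan biglycan, rose by 1.87 (adjusted p = 2.99e-08). Fbn1, the fibrillin of the microfibrils to which LTBPs attach, rose by 1.36 (adjusted p = 5.45e-06), and Aspn, asporin, rose by 0.98 (adjusted p = 0.000596).

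Among activators of the latent ligand, 4 of 11 were higher, with a median log2 fold change of 0.26. Thbs1, thrombospondin 1, rose by 2.04 (adjusted p = 6.51e-06), Mmp14 by 0.92 (adjusted p = 0.00808), Mmp2 by 0.70 (adjusted p = 0.000773) and the integrin subunit Itgb1 by 0.28 (adjusted p = 0.0345). The calls for Itgb1 and, in the lists that follow, Ski, Nox4 and Acta2 were lost in some of the fits that left out 1 rat. None of the 6 accessory receptors passed in edgeR or DESeq2, with 1 at an unadjusted p under 0.05 in each. Nor did any of the 7 tested SMADs and partners, which carry the signal to the nucleus, with 0 at an unadjusted p under 0.05 in either tool and log2 fold changes from -0.05 to 0.27.

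Inhibitors of the signal had 3 of 9 higher, namely Pmepa1 by 1.54 (adjusted p = 8.94e-06), Skil by 0.46 (adjusted p = 0.000636) and Ski by 0.31 (adjusted p = 0.0210). Pmepa1 restrains receptor SMADs, and Ski and Skil are nuclear corepressors of SMAD complexes. Genes known to respond to TGF-beta had 10 of 14 higher, with a median log2 fold change of 1.32. Postn, the matrix protein periostin, rose by 2.65 (adjusted p = 0.000160), Cilp by 2.10 (adjusted p = 8.29e-07), Nox4 by 0.84 (adjusted p = 0.0246) and the smooth muscle actin gene Acta2 by 0.56 (adjusted p = 0.0346). Many of these response genes are also general markers of scar, so the list does not measure TGF-beta signalling alone.

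**Figure D5:**
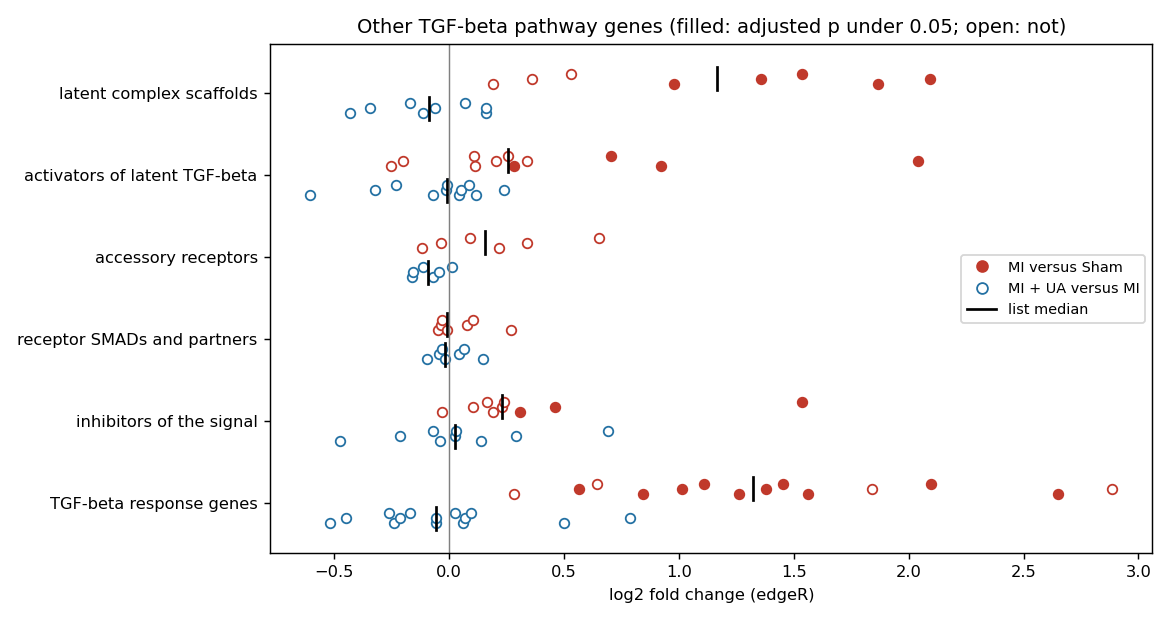
Log2 fold change (edgeR) of the 55 other pathway genes tested, by list, in MI versus Sham and in MI + UA versus MI. Filled points passed an adjusted p of 0.05, open points did not, and black bars are list medians. The list medians in MI versus Sham run from -0.01 for the receptor SMADs and partners to 1.32 for the response genes.

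With UA, 0 of the 55 passed in edgeR or in DESeq2, and 6 had an unadjusted p under 0.05 in edgeR and 4 in DESeq2, where edgeR gave 3.79% of all genes. Of the genes named above, those were Thbs1, at a log2 fold change of -0.60 (95% interval -1.03 to -0.17), and Pmepa1, at -0.47 (95% interval -0.79 to -0.15), each with an adjusted p of 1.00 after rounding. Also at an unadjusted p under 0.05, and named after their values were seen, Tagln and Smurf1 had log2 fold changes of -0.45 and -0.22, and Tgif1 had one of 0.29. In both infarcted groups against Sham, Thbs1 was higher, at 2.04 in MI and 1.44 in MI + UA, and so was Pmepa1, at 1.54 and 1.06.

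Ltbp2's profile across the rats was shared most closely by 5 genes of 10695 with an average log2 CPM of at least 1. Over the 12 rats, Pearson's r of log2 CPM with Ltbp2 was 0.986 for Prelp, 0.985 for Col8a1, 0.983 for Fibin, 0.980 for Ptgs2 and 0.980 for Comp. Prelp and Comp encode matrix proteins of cartilage and tendon, Col8a1 a short-chain collagen, and Ptgs2 an inducible cyclooxygenase. The 12 rats fall into infarcted and Sham rats, which sets most of each value. Over the 8 infarcted rats alone r was 0.878 for Prelp, 0.647 for Col8a1, 0.392 for Fibin, 0.333 for Ptgs2 and 0.374 for Comp. Genes of 1 library share its depth and scaling, and these values are descriptive. Chondrocyte markers had summed levels of 13.4 to 16.7 CPM in Sham, 23.5 to 59.0 CPM in MI and 24.2 to 30.6 CPM in MI + UA. The highest was MI rat 36, and the other MI rats reached at most 30.2 CPM. In MI versus Sham edgeR called 3 of the 4 tested higher and DESeq2 called 2. Of the 3, Sox9 did not overlap between the groups, whereas Acan and Col2a1 did and were at 0 counts in 4 and 9 of the 12 libraries. The part of these markers in the Ltbp2-like patterns was not tested.

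Among the members, Tgfb3 tracked Ltbp3 over the 12 rats (r = 0.960) and over the 8 infarcted rats (r = 0.739). For Tgfb2 and Tgfb3, which both rose after infarction, r was 0.744 over the 12 rats, -0.856 over the 8 infarcted rats and -0.301 for deviations from the 3 group means. The pair is named because its value of -0.856 was the most negative of all member pairs. A negative r was not particular to it. Tgfb2 had one with every other member over the 8 infarcted rats, from -0.769 with Tgfbr1 to -0.214 with Ltbp4 beside that with Tgfb3. MI rat 57 had the highest Tgfb2 and the lowest Tgfb3 of those rats, and MI + UA rat 64 the lowest Tgfb2.

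Ltbp2 and Tgfb3 lie on the same chromosome with 20 protein-coding genes between them in RefSeq's order. Of the 19 tested, 0 were higher and 1 was lower in MI than in Sham, and their median log2 fold change was -0.05, against 0.03 over all genes. Tgfb1 and Ltbp4 are also on 1 chromosome, with 30 such genes between them, of which 12 were tested and 1 was higher, with a median of 0.22. Counts this small are near the 5.82% higher and 5.53% lower of all genes.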

How the data were processed

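The authors depleted ribosomal RNA, sequenced strand-specific read pairs, mapped them with STAR 2.6.1c to the rat genome mRatBN7.2 and counted reads per Ensembl gene with HTSeq. The labels name polyA RNA. The strand setting of the counting is not given in the sources used here. The deposited values are raw counts per gene. Mitochondrially encoded genes took 50.2% to 58.6% of them, and the lines for reads not assigned to a gene, 51.7% to 57.1% of all reads listed, were left out of library sizes. A further MI + UA library, left out by the authors, was not used here.

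The 18182 genes with 10 or more counts over all libraries were fitted together over the 12 rats with edgeR 4.0.16 in R 4.3.3 (TMM, quasi-likelihood, Benjamini-Hochberg over all genes). The spread is that between single rats, each with its own library. DESeq2 1.42.0, other scalings and filters, fits of 2 groups and leaving out each rat were alternatives. Scripts were tested on simulated data. Members and lists were chosen with earlier results of these data known. Named pathway genes are the 2 with the largest and the 2 with the smallest log2 fold change among those past the threshold in MI versus Sham in each list. Those most like Ltbp2 are the 5 with the highest correlation. The remaining marker lists gave, in MI versus Sham, 1 of 7 endothelial genes lower, 2 of 7 smooth muscle and pericyte genes higher, 1 of 4 Schwann cell genes higher, 1 of 3 adipocyte genes lower, and 0 of 6 lymphocyte and 0 of 4 mesothelial genes called. Promoters are from RefSeq on GRCr8, and its annotation gave only sequence windows and gene order. The value of 1 listed pathway gene is not reported here.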

Additional observations from a re-analysis of the deposited data

How the results depend on the processing

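The 6 alternatives in test, scaling, filter and groups fitted called 6 to 7 of the 9 genes in MI versus Sham, and leaving out each rat called 4 to 7. In MI + UA versus MI every alternative called 0 of them. In MI + UA versus Sham leaving out each rat called 3 to 6, the 3 without Sham rat 38. The count of all genes in MI + UA versus MI was 0, and 3 with no low count filter, and 0 to 1 over the fits leaving out a rat, the 1 without MI rat 36. The count of all genes ran from 1468 to 2182 over those fits in MI versus Sham and from 1155 to 1895 in MI + UA versus Sham. Some log2 fold changes near 0 changed sign when 1 rat was left out. In MI versus Sham that of Tgfbr3 ran from -0.0041 to 0.13. In MI + UA versus MI the ranges were -0.30 to 0.11 for Tgfb2, -0.038 to 0.13 for Tgfb3, -0.043 to 0.086 for Tgfbr3, -0.14 to 0.024 for Ltbp1, -0.13 to 0.12 for Ltbp2, -0.10 to 0.013 for Ltbp3, -0.12 to 0.50 for Fn1, -0.18 to 0.054 for Bgn, -0.21 to 0.17 for Mmp14, -0.055 to 0.15 for Mmp2, -0.053 to 0.022 for Itgb1, -0.085 to 0.042 for Ski and -0.27 to 0.31 for Postn. Mmp14 was 0.028 with DESeq2. The cause was not tested. No paired analysis was possible because the groups hold different rats and share no replicate numbers. Of 30 groups of values examined for a rat far from the others, 0 exceeded Dixon's critical ratio, where chance alone flags about 1 group in 20.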
